A study of Mus musculus with 9 samples.

Results

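Gadd45a, Gadd45b and Gadd45g, the 3 members of the growth arrest and DNA damage family, and 7 genes known as targets of the transcription factor p53 (Cdkn1a, Mdm2, Ccng1, Bax, Sesn1, Sesn2 and Btg2) were followed in mouse renal cortex. The 10 genes were chosen by name, out of 21950 genes in the mRNA tables. Their values were summed over the transcripts of each gene. RNA-seq data of 3 groups came from male mice of the C57BL/KsJ background, with 3 mice per group and 1 library per mouse. The control group held db/m littermates, the dbdb group held db/db mice given vehicle, and the dbR group held db/db mice given rosiglitazone at 20 mg/kg per day. The db/db mice were dosed by gavage for 8 weeks, from 7 to 15 weeks of age, and the mice of all groups were 15 weeks old at sampling. Whether the controls were dosed too is not given in the sources used here. The db/db mouse carries a mutation of the leptin receptor gene in every cell and becomes obese and diabetic, so a difference from control is one of the whole animal and not of the kidney alone. Rosiglitazone activates the nuclear receptor PPARγ.

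p53 is a transcription factor that is kept low in unstressed cells by Mdm2, which marks it for breakdown, and that switches on genes of growth arrest, DNA repair and apoptosis when DNA is damaged. The Gadd45 proteins are small stress-induced nuclear proteins without enzyme activity that bind Map3k4, the Cdk1 kinase complex and Pcna, and take part in the removal of DNA methylation. In the kidney, p21, the product of Cdkn1a, has been studied for its part in the growth of glomerular and tubular cells in diabetes. Most of these genes also answer to regulators other than p53, such as NF-kB for Gadd45b and Atf4 for Sesn2.

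The values are FPKM, which counts fragments relative to transcript length and to library size, so that levels can be compared between genes. Differences are given on the scale of log2(FPKM + 0.1), from limma fitted to the 14537 genes with a mean of at least 0.1 FPKM, and a gene was called when its Benjamini-Hochberg adjusted p over all those genes was under 0.05. All 10 members passed that filter. Calls were also recomputed under alternative settings. Leaving mitochondrial genes out of the scaling also set the remaining FPKM of each library to the same sum. The highest transcript of a gene was taken from a fit adjusted over 29362 transcripts. Of these 9.57% were called in dbdb against control, 0.017% in dbR against dbdb and 8.5% in dbR against control. Estimated from the step between low FPKM values, the depth of the libraries was 0.914 to 1.136 times that of control replicate 1, and mitochondrial genes took 26.9% to 32.8% of the summed FPKM. At this depth Gadd45b rested on about 9 to 42 fragments per library and Cdkn1a on about 53 to 291, while each other member had at least about 129. Proximal tubule markers summed to 2470 to 3100 FPKM in every library, as a renal cortex label implies, and 3 of 4 adipocyte markers averaged under 0.1 FPKM. The 2 comparisons with control share the control libraries, and those with dbdb share the dbdb libraries, so they are not independent of each other.

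To show what lies before the genes that differed most clearly between dbdb and control, the 250 bases before the RefSeq start (GRCm38.p6) of the 4 members with the smallest adjusted p are printed here, with both starts of Cdkn1a. Capitals mark matches, on either strand, to the 10-letter p53 half-site, the CRE (TGACGTCA), the E-box (CACGTG), the TATA box (TATAAA) and the CCAAT box, named by its letters.
Cdkn1a, upstream start (chr17:29090729-29090978, plus strand): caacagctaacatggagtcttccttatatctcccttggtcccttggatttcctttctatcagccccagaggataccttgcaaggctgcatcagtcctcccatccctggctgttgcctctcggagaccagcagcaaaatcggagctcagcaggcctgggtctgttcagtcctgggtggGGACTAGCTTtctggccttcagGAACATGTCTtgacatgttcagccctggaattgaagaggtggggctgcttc
Cdkn1a, downstream start (chr17:29093519-29093768, plus strand): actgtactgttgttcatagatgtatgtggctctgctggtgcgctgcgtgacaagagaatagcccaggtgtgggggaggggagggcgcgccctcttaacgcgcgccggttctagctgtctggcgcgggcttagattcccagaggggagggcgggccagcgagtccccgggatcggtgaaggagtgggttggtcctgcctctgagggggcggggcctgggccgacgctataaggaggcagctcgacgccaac
Sesn2 (chr4:132510457-132510706, minus strand): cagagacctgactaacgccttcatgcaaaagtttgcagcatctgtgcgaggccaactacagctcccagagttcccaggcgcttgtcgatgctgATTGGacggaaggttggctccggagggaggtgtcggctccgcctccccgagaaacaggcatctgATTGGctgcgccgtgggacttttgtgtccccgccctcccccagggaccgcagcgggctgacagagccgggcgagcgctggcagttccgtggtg
Btg2 (chr1:134079156-134079405, minus strand): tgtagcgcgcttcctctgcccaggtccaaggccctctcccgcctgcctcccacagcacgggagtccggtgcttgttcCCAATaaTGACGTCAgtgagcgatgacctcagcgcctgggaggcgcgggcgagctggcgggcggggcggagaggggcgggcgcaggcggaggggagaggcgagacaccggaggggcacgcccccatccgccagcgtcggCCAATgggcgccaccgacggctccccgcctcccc
Gadd45b (chr10:80929841-80930090, plus strand): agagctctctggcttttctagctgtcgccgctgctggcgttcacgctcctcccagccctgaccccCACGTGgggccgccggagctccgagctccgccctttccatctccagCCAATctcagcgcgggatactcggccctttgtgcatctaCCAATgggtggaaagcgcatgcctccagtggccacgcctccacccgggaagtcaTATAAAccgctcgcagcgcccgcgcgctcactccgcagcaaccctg

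Among these sequences p53 half-sites were matched only before the upstream start of Cdkn1a, where 2 of them lie at -73 to -64 and -51 to -42 from the start. The transcript from that start held 7.42% of Cdkn1a FPKM, while 91.0% came from the transcript that starts 2790 bases downstream. The window of this downstream start held GC boxes (GGGCGG) alone among the motifs searched. The p53 half-sites lie upstream of the downstream start as well, but outside its window, so the search cannot assign them to either transcript. Bases beyond the windows, including those within the genes, were not searched. Btg2 had the one CRE, at -166 to -159, which also contains 2 overlapping matches to the CRE half-site TGACG. Gadd45b had an E-box at -185 to -180, CCAAT at -139 and -100 and TATAAA at -46, while Sesn2 had CCAAT on the minus strand of the window at -157 and -93. Over the 12 windows of all 10 members, a p53 half-site stood in 6 windows of 6 genes (Gadd45a, Cdkn1a, Mdm2, Ccng1, Bax and Sesn1), against 7.13% of 32851 RefSeq windows of the same length. Most members were named as known p53 targets, so this count is not independent of their choice. An E-box stood in 3 member windows (6.02% of all windows), a CRE in 1 (1.55%), its half-site in 2 (17.8%), CCAAT in 9 (33.8%), a GC box in 9 (32.7%) and TATAAA in 2 (12.4%). The AP-1 letters TGANTCA (6.75% of all windows), the NF-kB site (7.25%) and the CArG box (1.47%) were matched in none. A match describes the letters and does not show that a factor binds there.

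**Figure D1:**
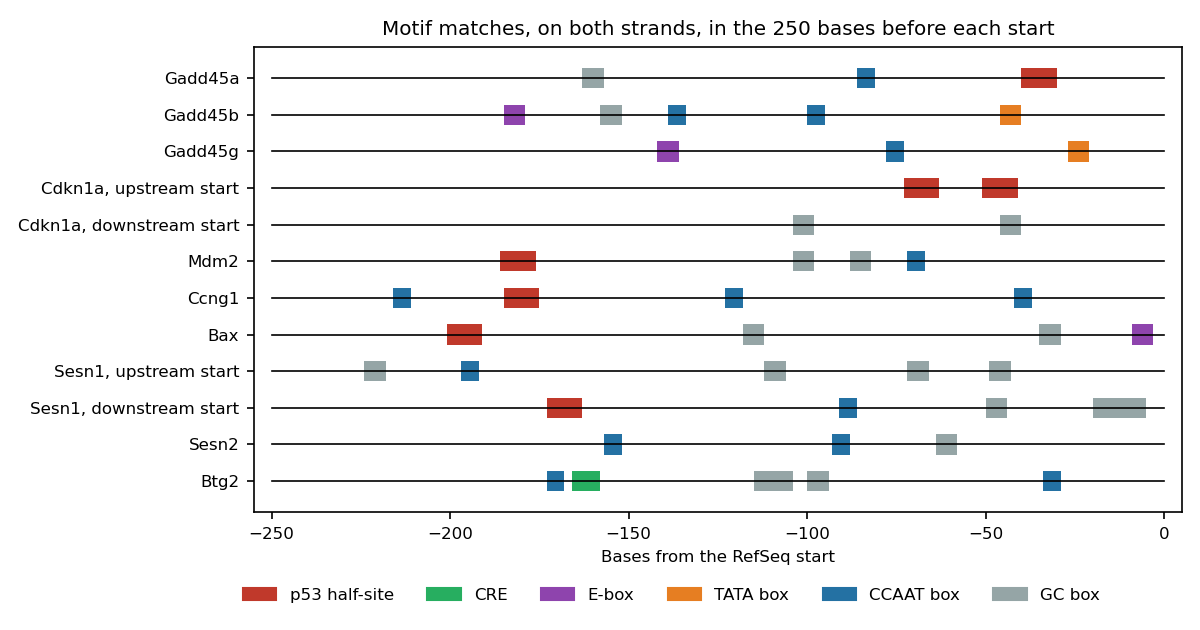
Positions of motif matches, on both strands, along the 250 bases before each of the 12 RefSeq starts of the 10 genes, in bases from the start. p53 half-sites (red) lie before 6 starts and the CRE (green) before Btg2 alone.

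In dbdb against control, 5 of the 10 genes were called and all 5 were higher: Cdkn1a, Gadd45b, Btg2, Sesn2 and Sesn1. Of all 14537 genes tested 26.4% were called, 13.1% higher and 13.4% lower. The median log2 fold change of the members was 0.53, against -0.00 over all genes. Fold changes among the called members ran from 1.30 for Sesn1 to 3.37 for Cdkn1a. Gadd45a, Gadd45g, Mdm2, Ccng1 and Bax were not called. In bulk cortex a change in the number of cells of a type and a change in RNA per cell cannot be told apart.

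**Figure D2:**
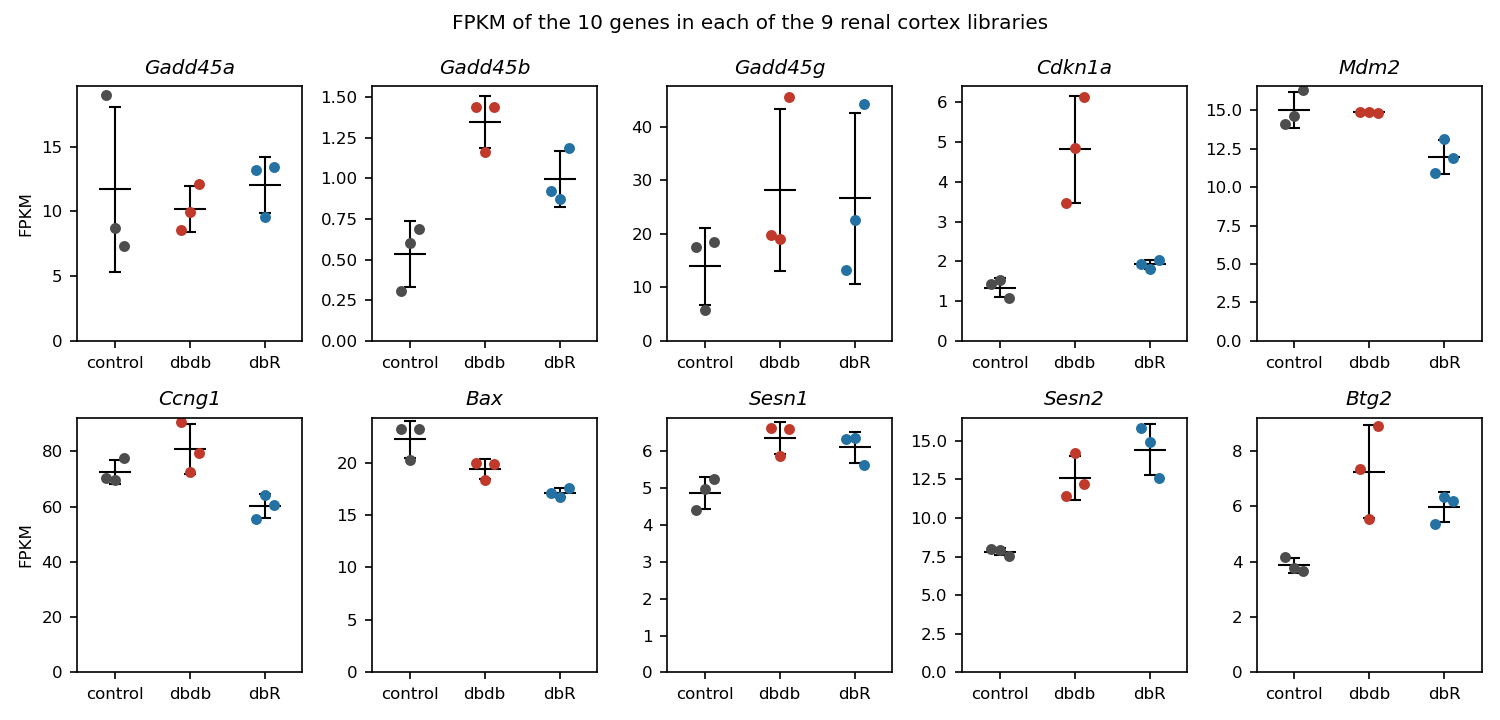
FPKM of each of the 10 genes in the 3 libraries of each group (points), with the group mean (bar) and SD (whiskers), each vertical axis starting at 0. The dbdb libraries of Cdkn1a lie between 3.46 and 6.14 FPKM, above all control (1.07 to 1.52) and dbR (1.82 to 2.04) libraries.

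Gadd45a (ENSMUSG00000036390, chr6:67035096-67037457, minus strand), the member of the family best known as a p53 target, stood at 19.0, 8.73 and 7.35 FPKM in the control libraries, 8.56, 9.98 and 12.1 in dbdb and 13.2, 9.57 and 13.4 in dbR. One control library was the highest of all 9 and another the lowest, so the groups overlapped throughout. The log2 difference of dbdb from control was -0.08 (SE 0.30, adjusted p = 0.876), and it turned positive without control replicate 1 (0.33), without dbdb replicate 1 (0.04) and with mitochondrial genes left out of the scaling (0.08). Its 95% interval, -0.75 to 0.60, leaves room for a change of either sign. dbR differed from dbdb by 0.24 (SE 0.30, adjusted p = 0.737) and from control by 0.16 (SE 0.30, adjusted p = 0.75), the latter reading -0.11 without control replicate 3. Gadd45a overlaps a transcript on the opposite strand (E230016M11Rik). The library kit keeps strand, but the sources used here do not say whether strand was used in the alignment and quantification.

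Gadd45b (ENSMUSG00000015312, chr10:80930073-80932204, plus strand), which is known as an early response gene of NF-kB and TGF-beta signalling, was the lowest of the 10 genes in every group. It stood at 0.305, 0.602 and 0.691 FPKM in control, 1.44, 1.16 and 1.44 in dbdb, and 0.921, 0.871 and 1.19 in dbR. All dbdb and all dbR libraries were above all control libraries, while the lowest dbdb library lay just under the highest dbR library. Gadd45b was 2.37 times as high in dbdb as in control (log2 difference 1.25, SE 0.25, adjusted p = 0.00512) and was called under each of the 19 alternatives that kept it. The size depended on the processing, at 0.62 to 1.43 over those alternatives. The difference of dbR from dbdb was -0.41 (SE 0.25, adjusted p = 0.421). Against control dbR was higher by 0.83 (SE 0.25, adjusted p = 0.0336), a call lost without control replicate 1 (0.54, adjusted p = 0.0704), dbR replicate 1 (0.069), dbR replicate 2 (0.0567) or dbR replicate 3 (0.107). Over 19 alternatives the difference ran from 0.38 to 1.02 and the call held under 11. It was also lost without the filter (0.0526), after quantile normalization (0.0894), with the 6 libraries alone (0.0557) and with the highest transcript (0.128). Gadd45b has 1 transcript in these data, as has Btg2, so for them only the fit and its adjustment over 29362 transcripts differ there.

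Gadd45g (ENSMUSG00000021453, chr13:51846678-51848468, plus strand), known as a cytokine-induced member of the family, varied widely between libraries of each group. Its levels were 17.6, 5.69 and 18.4 FPKM in control, 19.7, 19.1 and 45.6 in dbdb and 13.2, 22.5 and 44.3 in dbR. Between control libraries its coefficient of variation was 51.3%, between dbdb libraries 53.8% and between dbR libraries 59.8%, where Sesn2 had 3.27%, 11.7% and 11.3%. Although every dbdb library was above every control library, the log2 difference of 1.06 had an SE of 0.54 and missed the call (adjusted p = 0.177). It read 0.52 without control replicate 2 and 0.65 without dbdb replicate 3. dbR differed from dbdb by -0.12 (SE 0.54, adjusted p = 0.933), which read 0.29 without dbdb replicate 3 and 0.29 without dbR replicate 1. Against control the dbR difference was 0.94 (SE 0.54, adjusted p = 0.24), which read 0.39 without control replicate 2 and 0.49 without dbR replicate 3.

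The highest library was control replicate 1 for Gadd45a and dbdb replicate 3 for Gadd45g, while dbdb replicates 1 and 3 stood level at the top for Gadd45b. Across the 9 libraries and among the 14537 genes, the 3 genes most like Gadd45a by Pearson r of log2 values were Kdelr3 (0.95), Ino80e (0.92) and Acbd7 (0.91). Those most like Gadd45b were Tcp10b (0.97), Grasp (0.96) and Tead3 (0.95), and those most like Gadd45g were Zfp428 (0.97), Ilk (0.95) and Arl15 (0.95). These values are descriptions, picked as the highest of many over 9 libraries that differ by group. Of the 17 listed partners of the Gadd45 proteins, 3 were higher in dbdb than in control and 1 lower, where 26.4% of all genes were called. Tet1, an enzyme that oxidizes 5-methylcytosine, rose by 0.85 on the log2 scale (SE 0.24, adjusted p = 0.0267). Tdg, the glycosylase of active DNA demethylation, rose by 0.25 (SE 0.06, adjusted p = 0.0187), and Map2k3, a kinase upstream of p38, by 0.37 (SE 0.07, adjusted p = 0.00359). Map3k4, the kinase that Gadd45 proteins bind and activate, fell by 0.34 (SE 0.08, adjusted p = 0.0136). In dbR against control, where 24.1% of all genes were called, Tet1 (1.01) and Map2k3 (0.36) were higher and Map3k4 (-0.38) lower. Tet1 was lost there with the highest transcript (0.0817) and Map3k4 with mitochondrial genes left out of the scaling (0.0501). There were 0 partners called between dbR and dbdb (0.743% of all genes) and 4 at an unadjusted p under 0.05 in limma (17.5% of all genes). In dbdb the call of Tet1 was lost without control replicate 1 (0.0576), 2 (0.0704) or 3 (0.0605) or dbdb replicate 1 (0.0583) or 2 (0.0642), with the 6 libraries alone (0.057) and with the highest transcript (0.0558). That of Tdg was lost without control replicate 1 (0.0541) or 3 (0.0623) or dbdb replicate 2 (0.0567) and with the highest transcript (0.16, adjusted p = 0.407), and that of Map3k4 with mitochondrial genes left out of the scaling (-0.19, adjusted p = 0.162).

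Cdkn1a (ENSMUSG00000023067, chr17:29090976-29100727, plus strand) encodes p21, which inhibits the cyclin-dependent kinases and is the classical p53 target in cell cycle arrest. It stood at 1.42, 1.52 and 1.07 FPKM in control, 3.46, 4.85 and 6.14 in dbdb, and 1.93, 1.82 and 2.04 in dbR. The 3 groups did not overlap: control was lowest, dbR in between and dbdb highest. Cdkn1a was 3.37 times as high in dbdb as in control (log2 difference 1.75, 95% interval 1.31 to 2.19, SE 0.20, adjusted p = 0.000228), and the call held under all 20 alternatives. It ranked 301 by p among the 14537 genes. In dbR it was 0.423 times its level in dbdb (log2 difference -1.24, 95% interval -1.68 to -0.80, SE 0.20, adjusted p = 0.0295). The remaining difference of dbR from control was 0.51 (SE 0.20, adjusted p = 0.0864). A transcript of another gene lies on the opposite strand (AC167363.2).

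Cdkn1a was the only member called between dbR and dbdb, where 0.743% of all genes were called, 0.564% higher and 0.179% lower. That call held under 11 of 20 alternatives, with adjusted p from 0.0227 to 0.149. It was lost without dbdb replicate 2 (adjusted p = 0.0909), dbR replicate 1 (0.0674), dbR replicate 2 (0.149) or dbR replicate 3 (0.0706), whereas the log2 difference stayed between -1.45 and -1.05 when any library was left out. It was also lost with the replicate numbers as a block (adjusted p = 0.0646), without the filter (0.0639), with the 6 libraries alone (0.0523), without a variance trend (0.0711) and with the highest transcript (0.134).

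**Figure D3:**
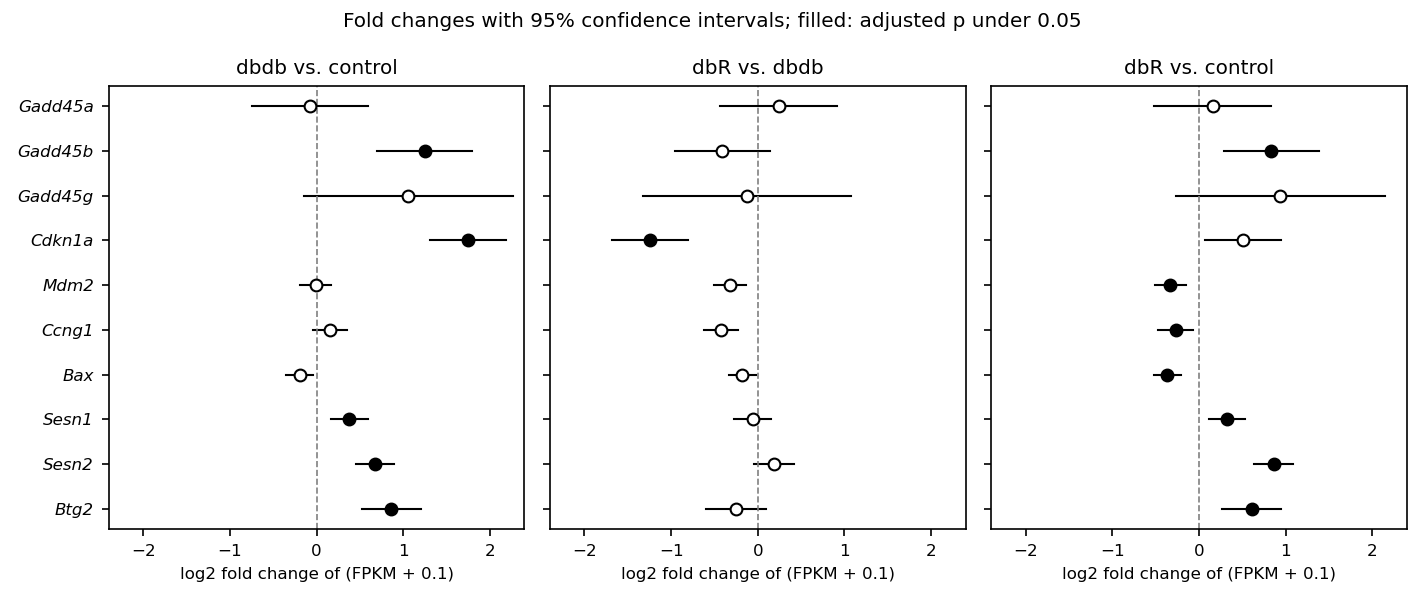
Log2 fold change of FPKM + 0.1 for each gene (points) with its 95% confidence interval (lines) in the 3 comparisons, filled where the limma adjusted p was under 0.05. In dbdb against control 5 points are filled, all to the right of 0, in dbR against dbdb only Cdkn1a, and in dbR against control 7.

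The transcript that made up 91.0% of Cdkn1a (ENSMUST00000023829, the downstream start) averaged 1.11 ± 0.042 FPKM in control (SD, n = 3), 4.41 ± 1.29 in dbdb and 1.84 ± 0.186 in dbR. None of its groups overlapped. Its log2 differences were 1.86 for dbdb against control, -1.18 for dbR against dbdb and 0.68 for dbR against control, each with an exact permutation p of 0.1, two-sided, the smallest that 3 against 3 allows. The transcript of the upstream start (ENSMUST00000119901), chosen after its values were seen, averaged 0.162 ± 0.185 FPKM in control, 0.348 ± 0.0582 in dbdb and 0.0893 ± 0.0786 in dbR. There dbdb overlapped control and lay above dbR, at levels too low for the split between transcripts to be certain.

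**Figure D4:**
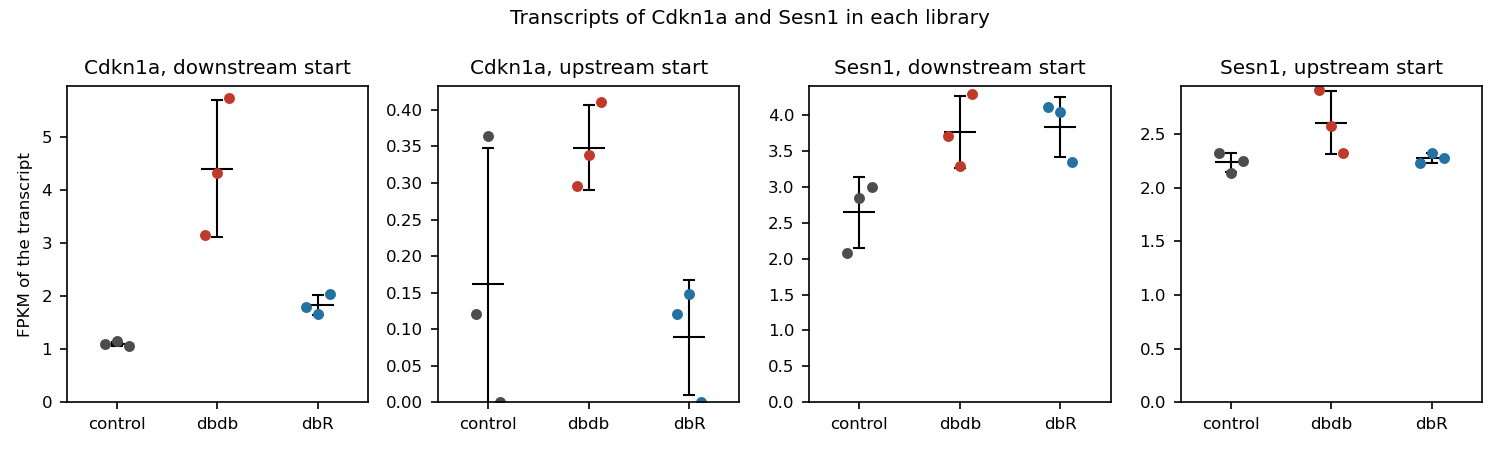
FPKM of the transcripts from both starts of Cdkn1a and of Sesn1 in the 3 libraries of each group (points), with the group mean (bar) and SD (whiskers). For the downstream start of Cdkn1a no groups overlap, and for that of Sesn1 the dbdb and dbR libraries (3.29 to 4.29 and 3.35 to 4.11 FPKM) lie above control (2.08 to 3.00 FPKM).

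Among the other members that act on growth, Btg2 (ENSMUSG00000020423, chr1:134075170-134079120, minus strand), an antiproliferative protein that speeds mRNA deadenylation, stood at 4.18, 3.79 and 3.65 FPKM in control. It stood at 7.34, 5.54 and 8.91 in dbdb and at 5.36, 6.36 and 6.21 in dbR. Both db/db groups were above control in every library and overlapped each other. Btg2 was higher in dbdb than in control by 0.86 (SE 0.15, adjusted p = 0.00291), 1.82 times, under all 20 alternatives. The dbR difference from dbdb was -0.25 (SE 0.15, adjusted p = 0.426), and -0.43 to -0.1 with a library left out. Against control dbR was higher by 0.61 (SE 0.15, adjusted p = 0.017), a call lost without control replicate 3 (adjusted p = 0.0554), dbR replicate 2 (0.0593) or dbR replicate 3 (0.0534), or with the highest transcript (0.0568). In the list of Cdk inhibitors, cyclins and Btg/Tob genes, 7 of 24 tested genes were higher in dbdb than in control and 3 lower, where 13.1% of all genes were higher and 13.4% lower. The rises included Tob2 (1.17) and Btg3 (0.63), relatives of Btg2, and Cdkn1c (0.94), the Cdk inhibitor p57. Ccnd1, the cyclin D1 that drives entry into the cycle, rose too, by 0.75 (SE 0.11, adjusted p = 0.000921), whereas Ccnd2, Cdk6 and Cdk4 fell by 0.59, 0.57 and 0.17, the last under 5 of 20 alternatives. Of the 24 genes 4 were higher and 4 lower in dbR against control, where 12.3% of all genes were higher and 11.8% lower. The higher ones were Cdkn1c (0.79), Btg1 (0.42) and Btg3 (0.40), both relatives of Btg2, and Ccnd3 (0.39), cyclin D3. The lower ones were Cdk6 (-0.42), Ccng2 (-0.38), a relative of Ccng1, and the deadenylase subunits Cnot7 (-0.28) and Cnot8 (-0.27). Cdkn1c and Btg1 held under all 20 alternatives, Ccnd3 and Cnot7 under 19, Ccng2 under 17, Btg3 under 16, Cdk6 under 15 and Cnot8 under 14. With mitochondrial genes left out of the scaling Cdk6, Cnot7 and Cnot8 were lost (-0.33, -0.19 and -0.18, adjusted p = 0.0792, 0.125 and 0.0799). Cdk6 was also lost without control replicate 1 (0.0534) or 3 (0.0783) or dbR replicate 2 (0.078) or 3 (0.0632), and Btg3 without control replicate 2 (0.0526) or 3 (0.0534) or dbR replicate 2 (0.0524). The call of Ccng2 ended without dbR replicate 1 (0.055) or 2 (0.0504), and that of Cnot8 without control replicate 1 (0.0596) or 3 (0.0996) or dbR replicate 1 (0.0868). With the highest transcript Ccng2 read -0.26 (adjusted p = 0.304). Between dbR and dbdb limma called 0 genes of the list (0.743% of all genes), with 7 at an unadjusted p under 0.05 (17.5% of all genes).

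Ccng1 (ENSMUSG00000020326, chr11:40748552-40755311, minus strand), cyclin G1, which helps to reactivate Mdm2, had the highest level of the 10 genes. It stood at 70.2, 69.8 and 77.6 FPKM in control, 90.5, 72.7 and 79.5 in dbdb, and 55.6, 64.1 and 60.7 in dbR. Control and dbdb overlapped, and every dbR library was below every other library. The difference of dbdb from control was 0.15 (SE 0.09, adjusted p = 0.231), and 0.07 to 0.23 with a library left out. It was called higher, at 0.31 (adjusted p = 0.00884), with mitochondrial genes left out of the scaling and at 0.27 (adjusted p = 0.0229) after quantile normalization. dbR was 0.746 times dbdb (log2 difference -0.42, SE 0.09) at an adjusted p of 0.0577, which under those same alternatives became 0.0186 and 0.0245. Against control the dbR difference was -0.27 (SE 0.09, adjusted p = 0.0493). That call rested just under the threshold and held under 5 of 20 alternatives. It was lost without control replicate 1 (0.0776), 2 (0.0745) or 3 (0.151), dbdb replicate 3 (0.0592), or dbR replicate 1 (0.153), 2 (0.0549) or 3 (0.0983).

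Mdm2 (ENSMUSG00000020184, chr10:117688875-117710758, minus strand), the ubiquitin ligase that is both a target and the main inhibitor of p53, stood at 14.1, 14.6 and 16.3 FPKM in control. Its dbdb libraries lay at 14.9, 14.9 and 14.8 and its dbR libraries at 10.9, 13.1 and 11.9. The dbdb libraries lay within the range of control and every dbR library lay below all 6 others. The dbdb difference was -0.01 (SE 0.08, 95% interval -0.19 to 0.17, adjusted p = 0.944). It read 0.05 without control replicate 3, 0.02 with scaling to the 75th percentile and 0.15 with mitochondrial genes left out of the scaling. dbR was lower than control by 0.33 on the log2 scale (SE 0.08, adjusted p = 0.0163), a call lost without control replicate 3 (0.0589) or dbR replicate 1 (0.057), or with the highest transcript (0.0622). The dbR difference from dbdb was -0.32 (SE 0.08, adjusted p = 0.0925), which was called only with mitochondrial genes left out of the scaling (-0.38, adjusted p = 0.0487).

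Bax (ENSMUSG00000003873, chr7:45461697-45466898, minus strand), which opens the outer mitochondrial membrane in apoptosis, stood at 23.2, 20.2 and 23.2 FPKM in control, 20.0, 18.3 and 19.9 in dbdb, and 17.1, 16.7 and 17.6 in dbR. The 3 groups did not overlap, with control highest and dbR lowest. The dbdb difference of -0.19 (SE 0.07) missed the call (adjusted p = 0.0681) and passed it without control replicate 2 (-0.26, adjusted p = 0.0261). That was the 1 alternative of 20 that passed, and the 20 ran from -0.26 to -0.04, with limma adjusted p up to 0.737. dbR was 0.775 times control (log2 difference -0.37, SE 0.07, adjusted p = 0.00459), in all 20 alternatives, and differed from dbdb by -0.18 (SE 0.07, adjusted p = 0.236). Bax shares its strand with an overlapping gene model (Gm45808), so that fragments may have been split between them. Of 19 further genes of the Bcl2 family and mitochondrial apoptosis that were tested, 3 were higher and 2 lower in dbdb than in control, where 26.4% of all genes were called. The higher ones were Bcl2l11 (0.50), which encodes the pro-apoptotic Bim, and the survival genes Mcl1 (0.36) and Bcl2l1 (0.31). Bcl2l1 was lost without control replicate 1 (0.0812) or 2 (0.0572) or dbdb replicate 2 (0.065) or 3 (0.0758), and with the highest transcript (0.15, adjusted p = 0.456). Bok and Cycs, cytochrome c, fell by 0.64 and 0.46 and were lower in dbR than in control too (-0.69 and -0.49), where Bcl2l11 was the 1 higher gene (0.47). Of all genes 12.3% were higher and 11.8% lower in dbR than in control. In that comparison Bcl2l11 was lost without dbR replicate 1 (0.05) and with the highest transcript (0.30, adjusted p = 0.265), and Bok with the highest transcript (0.0616).

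Sesn1 and Sesn2 encode sestrins, which restrain mTORC1, and Sesn2 senses leucine. Sesn1 (ENSMUSG00000038332, chr10:41809935-41908424, plus strand) stood at 4.40, 4.99 and 5.25 FPKM in control, 6.62, 5.87 and 6.61 in dbdb, and 6.34, 6.37 and 5.62 in dbR. Both db/db groups lay above control. It was higher in dbdb by 0.38 (SE 0.09, adjusted p = 0.0157), lost without control replicate 1 (0.31, adjusted p = 0.0529) or with the highest transcript (0.50, adjusted p = 0.106), and higher in dbR than in control by 0.32 (SE 0.09, adjusted p = 0.0343). The dbR call was lost without control replicate 1 (0.108) or 2 (0.0653) and without dbR replicate 1 (0.101) or 2 (0.101), as well as after quantile normalization (0.0749), with the replicate block (0.0675) and with the highest transcript (0.097), holding under 13 of 20 alternatives. dbR and dbdb differed by -0.06 (SE 0.09, adjusted p = 0.793).

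Sesn1 had a pair of transcripts, from starts 77504 bases apart. The transcript of the downstream start (ENSMUST00000041438, 59.0% of the FPKM), whose RefSeq window holds the p53 half-site, was at 2.64 ± 0.492 FPKM in control (SD, n = 3), 3.76 ± 0.501 in dbdb and 3.83 ± 0.421 in dbR. The dbdb and dbR libraries were above control, with log2 differences of 0.50 and 0.53 (exact permutation p = 0.1 each, two-sided, the smallest possible). The transcript of the upstream start (ENSMUST00000099931, 41.0%) was at 2.24 ± 0.0904, 2.60 ± 0.293 and 2.28 ± 0.0482 FPKM. Its dbdb difference was 0.21 (exact permutation p = 0.1) and its dbR difference from control was 0.03 (exact permutation p = 0.6). The RefSeq window searched for motifs at the upstream start lies inside this transcript, whose own start is 639 bases before the RefSeq start, so the bases before it were not searched. Whether the transcripts differed in their response was not tested. A gene model on the same strand (9930024M15Rik) overlaps Sesn1.

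Sesn2 (ENSMUSG00000028893, chr4:132492032-132510501, minus strand) stood at 8.02, 7.93 and 7.54 FPKM in control, 11.4, 14.2 and 12.2 in dbdb and 15.8, 14.9 and 12.6 in dbR. Every library of both db/db groups was above every control library, and these groups overlapped. It was 1.60 times control in dbdb (log2 difference 0.68, SE 0.10, adjusted p = 0.00124) and 1.82 times control in dbR (0.87, SE 0.10, adjusted p = 0.000346), each under all 20 alternatives. dbR and dbdb differed by 0.19 (SE 0.10, 95% interval -0.04 to 0.42, adjusted p = 0.37). Another gene model (Gm12981) overlaps Sesn2. Of 22 further genes of the sestrin, amino acid sensing and integrated stress response list, 2 were higher in dbdb than in control and 2 lower, where 26.4% of all genes were called. Ppp1r15a, also known as Gadd34, rose by 0.50 (SE 0.12, adjusted p = 0.0152) and the autophagy kinase Ulk1 by 0.40, while Sqstm1 and Nprl2 fell by 0.24 and 0.29, Nprl2 under 6 of 20 alternatives. Ppp1r15a was lost without control replicate 3 (0.055) and with the highest transcript (0.0563). Sqstm1 was lost with mitochondrial genes left out of the scaling (-0.08, adjusted p = 0.274) and after quantile normalization (-0.16, adjusted p = 0.0798). In dbR against control, where 24.1% of all genes were called, 1 of the 22 was higher and 3 lower. Sesn3, the remaining sestrin, was higher by 0.32 (SE 0.08, adjusted p = 0.0182), and Atf4, the transcription factor of that stress response, was lower by 0.44 (SE 0.11, adjusted p = 0.0144). Sqstm1 (-0.43, adjusted p = 0.000319), an autophagy receptor, and Nprl2 (-0.33, adjusted p = 0.03) were lower too, under 20 and 13 of 20 alternatives. Nprl2 was lost without control replicate 1 (0.0603) or 3 (0.088) or dbR replicate 1 (0.102) or 2 (0.0668). Sesn3 was lost without control replicate 3 (0.065) or dbR replicate 1 (0.0661) or 3 (0.0501), and Atf4 without control replicate 3 (0.0507) or with mitochondrial genes left out of the scaling (-0.34, adjusted p = 0.0541).

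In dbR against control 7 of the 10 genes were called, 4 higher (Gadd45b, Sesn1, Sesn2 and Btg2) and 3 lower (Mdm2, Ccng1 and Bax), where 24.1% of all genes were called, 12.3% higher and 11.8% lower. Left-out libraries brought the 7 down to 5 (control replicate 2), 4 (control replicate 1, control replicate 3 or dbR replicate 3) or 3 (dbR replicate 1 or 2). Of all genes 18.7%, 19.8%, 17%, 18.6%, 17.6% and 17.9% were called in those fits, in that order. Cdkn1a, not called, passed without dbdb replicate 1 (adjusted p = 0.0361) or 3 (0.0487) and with the 6 libraries alone (0.0417). With mitochondrial genes left out and the rest of each library scaled to the same sum, the median of all genes shifted. It read 0.15 in dbdb against control, -0.06 in dbR against dbdb and 0.09 in dbR against control. The share of called genes that were higher then moved from 49.5% to 78.3%, from 75.9% to 48.6% and from 51.1% to 70.5%. Mitochondrial genes took 28.2% to 30% of FPKM in control, 28.2% to 30.1% in dbdb and 26.9% to 32.8% in dbR. The summed FPKM ran from 675346 to 730057 in control, 594838 to 647995 in dbdb and 595252 to 702217 in dbR. Which of these steps, the leaving out or the equal sum, moved the calls was not tested.

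By level, Ccng1 led in each group (72.5, 80.9 and 60.2 FPKM on average in control, dbdb and dbR) and stood clear of the next gene. In control it was followed by Bax (22.2), Mdm2 (15.0), Gadd45g (13.9), Gadd45a (11.7), Sesn2 (7.83), Sesn1 (4.88), Btg2 (3.88), Cdkn1a (1.34) and Gadd45b (0.533). Neighbours in this order overlapped between libraries from Mdm2 to Sesn2, and the rest were separate. In dbdb Gadd45g (28.1) came ahead of Bax (19.4) and Sesn2 (12.6) ahead of Gadd45a (10.2), with both pairs overlapping. Cdkn1a, separate from Btg2 in control, reached 4.82 FPKM in dbdb, where its libraries overlapped those of Sesn1 (6.37), and stood apart again in dbR (1.93, against 5.98 for Btg2).

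Trp53, which encodes p53, was at 11.6, 11.2 and 10.3 FPKM in control, 9.48, 9.65 and 8.91 in dbdb and 9.99 to 10.1 in dbR. It was lower in dbdb than in control in every library, by 0.24 on the log2 scale (SE 0.07, adjusted p = 0.0264), a call lost without control replicate 1 (0.0876) or 2 (0.0726), without dbdb replicate 1 (0.0519) or 3 (0.0824), and with mitochondrial genes left out of the scaling (-0.08, adjusted p = 0.488). It was also lost with the 6 libraries alone (0.0557) and with the highest transcript (0.134), holding under 13 of 20 alternatives. dbR was called against neither group (0.10, adjusted p = 0.469, against dbdb and -0.14, adjusted p = 0.173, against control). Mdm4, a relative of Mdm2 and an inhibitor of p53, averaged 13.6, 14.2 and 15.3 FPKM and was not called (adjusted p = 0.62 in dbdb against control). Of 15 tested p53 regulators and DNA damage kinases, 3 were called in dbdb against control, all lower. They were Trp53 and the kinases Prkdc (-0.32, adjusted p = 0.0159) and Atr (-0.25, adjusted p = 0.0349), against 13.4% lower among all genes. With mitochondrial genes left out of the scaling neither kinase passed (adjusted p = 0.21 and 0.463), Prkdc was lost without control replicate 3 (0.0536) or dbdb replicate 1 (0.0527), and Atr held under 9 of 20 alternatives. Atr was the 1 gene of this list called in dbR against control (-0.28, adjusted p = 0.0226), where 24.1% of all genes were called. That call held under 14 of 20 alternatives and not without control replicate 1 (0.0568) or 3 (0.0722) or dbR replicate 1 (0.0707) or 3 (0.0611). mRNA levels do not measure the amount or activity of the p53 protein.

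Of 34 tested p53 target genes beyond the members, 9 were higher and 3 lower in dbdb than in control, 26.4% of all genes being called in that comparison. Their median log2 fold change was 0.16. Plk3, a stress-responsive polo-like kinase, stood at 2.80, 2.31 and 3.20 FPKM in control, 19.0, 10.1 and 17.8 in dbdb and 3.79, 3.18 and 8.08 in dbR. Every dbdb library was above all others, and the rise over control was 2.41 on the log2 scale (SE 0.33, adjusted p = 0.000741). Gdf15, a secreted stress cytokine, averaged 1.20, 2.83 and 1.26 FPKM in the 3 groups and rose by 1.17 in dbdb (SE 0.27, adjusted p = 0.0105). Ephx1, an epoxide hydrolase, rose by 0.94 (SE 0.12, adjusted p = 0.000524) and Phlda3, an inhibitor of Akt, by 0.90 (SE 0.18, adjusted p = 0.00525). The 3 lower genes were Ckap2 (-0.88, held under 10 of 19 alternatives), Rrm2b (-0.39), a ribonucleotide reductase subunit, and Perp (-0.31), a desmosome protein. With mitochondrial genes left out of the scaling Rrm2b (-0.23, adjusted p = 0.0625) and Perp (-0.15, adjusted p = 0.145) were lost, and with the highest transcript Gdf15 was (1.06, adjusted p = 0.118). Between dbR and dbdb limma called 0 of the 34, with 10 at an unadjusted p under 0.05, where 17.5% of all genes were, and 1 called without dbR replicate 3. In dbR against control, where 12.3% of all genes were higher and 11.8% lower, 5 were higher, among them Ephx1 (0.65), Phlda3 (0.64), Ak1 (0.61) and Sfn (0.56), and 5 were lower, among them Pmaip1 (-0.63), the gene of Noxa, Plk2 (-0.51), Rrm2b (-0.47) and Aen (-0.31). The 10 calls in dbR against control became 5 without control replicate 2 or dbR replicate 2, and 6 without dbR replicate 1 or 3. Of all genes 18.7%, 17.9%, 17.6% and 18.6% were called in those fits, in that order. Pmaip1 held under 11 of 20 alternatives, Sfn under 13, Plk2 and Aen under 14, Phlda3 under 15 and Ak1 under 16. Without control replicate 2 the calls of Pmaip1 (0.127), Plk2 (0.0668), Phlda3 (0.0874) and Ak1 (0.0517) ended, and without control replicate 3 those of Pmaip1 (0.11), Sfn (0.0942), Aen (0.0749) and Ak1 (0.0621). Without dbR replicate 1 those of Pmaip1 (0.115), Plk2 (0.0731), Aen (0.0759), Sfn (0.068) and Ak1 (0.055) ended.

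**Figure D5:**
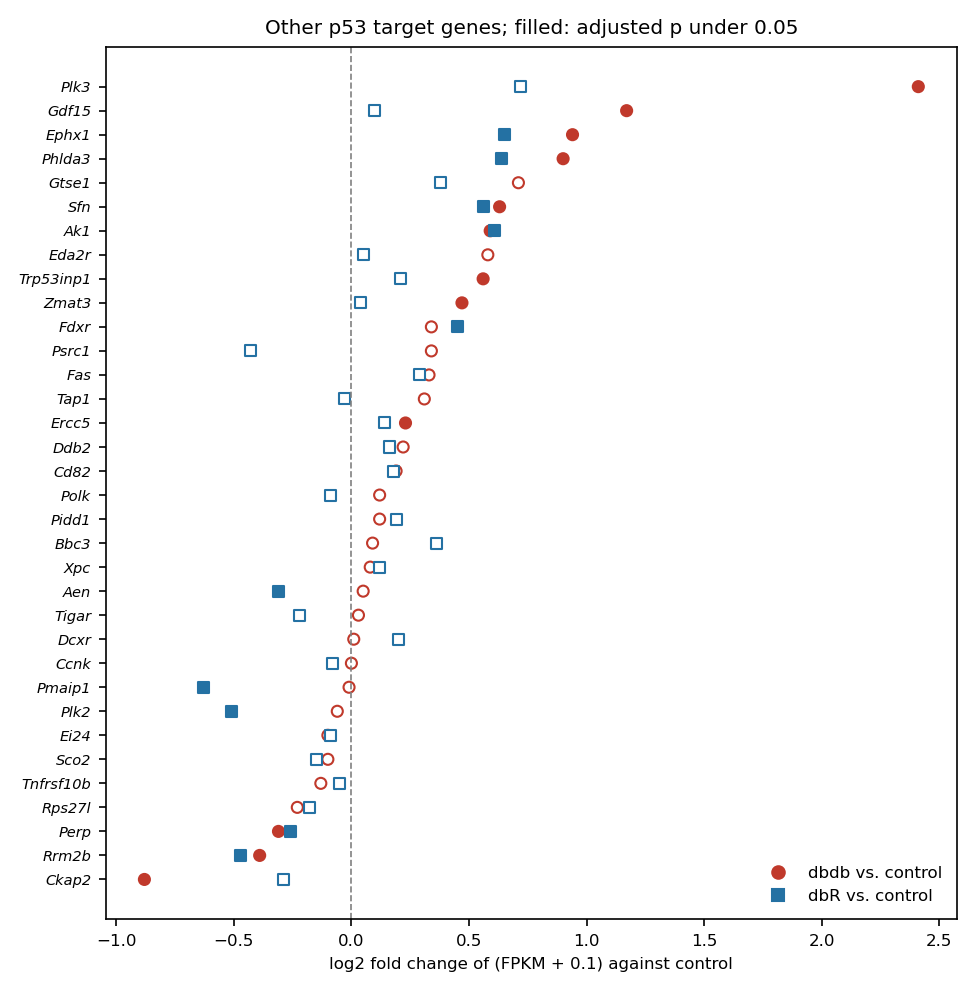
Log2 fold change of FPKM + 0.1 against control for the 34 tested p53 target genes beyond the 10 members, in dbdb (red circles) and dbR (blue squares), filled where the limma adjusted p was under 0.05. In dbdb 12 circles are filled, from Plk3 (2.41) to Ckap2 (-0.88), and in dbR 10 squares, with Pmaip1 (-0.63) the lowest. Both comparisons use the same control libraries.

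Other stress programmes were read from lists beside the members. Of 19 tested immediate-early and NF-kB response genes, 7 were higher and 2 lower in dbdb than in control, where 26.4% of all genes were called. The largest rises were those of Dusp1 (1.53), Nr4a1 (1.44), Ier3 (1.31) and Zfp36 (0.94). Tnf (-1.29) and Egr2 (-0.90) were lower, both averaging under 0.3 FPKM in every group. Tnf ran from -2.65 to -0.26 over 19 alternatives and was called under 18, lost with the highest transcript (-0.77, adjusted p = 0.432). Egr2 was called under 8 of 18, lost without control replicate 1 (0.123) or 2 (0.118), any dbdb replicate (0.0809, 0.0784 and 0.102) or dbR replicate 3 (0.0562). With a pseudocount of 1 Egr2 read -0.19 (adjusted p = 0.0616). Nr4a1 was lost without control replicate 1 (0.0635) or 3 (0.0509) and with the highest transcript (0.0661). Of the 19 genes 5 were called in dbR against control, all higher, where 12.3% of all genes were higher. They were led by Dusp1 (1.22), Zfp36 (1.08), Nfkbia (0.85), the inhibitor of NF-kB, and Myc (0.76), which was lost without dbR replicate 1 (0.0507) and with the highest transcript (0.0678). Of 19 glucocorticoid and clock-controlled genes, 10 were higher and 4 lower against the same 26.4%. The rises were led by Zbtb16 (2.78), Sgk1 (2.61), Cry1 (2.24) and Fkbp5 (1.85), a gene induced by glucocorticoids. The lower genes were the clock repressors Nr1d1 (-1.25) and Nr1d2 (-0.30), the clock-controlled Dbp (-0.52) and Nr3c1 (-0.39), the glucocorticoid receptor. Nr1d2 was lost with mitochondrial genes left out of the scaling (-0.14, adjusted p = 0.125) and Dbp with the highest transcript (0.057). Treated mice had 10 of the 19 higher than control, led by Zbtb16 (2.12), Cry1 (1.95), Sgk1 (1.80) and Fkbp5 (1.20), and 3 were lower, Nr1d1 (-0.84), Dbp (-0.63) and Nr1d2 (-0.39). These 7 genes held under all 20 alternatives in that comparison, which uses the same control libraries as that of dbdb. Per2 of the clock was the one gene of all the pathway lists called between dbR and dbdb (-0.49, SE 0.08, adjusted p = 0.0282), where 0.743% of all genes were called. That call was lost without dbdb replicate 1 (0.0529) or 2 (0.0895) and without dbR replicate 1 (0.0674), 2 (0.149) or 3 (0.0647). It was also lost without the filter (0.0524), without a variance trend (0.0711), with the replicate block (0.0594) and with the highest transcript (0.102), holding under 11 of 20 alternatives. Its libraries, at 7.18, 6.55 and 7.79 FPKM in control, 15.8, 16.8 and 17.3 in dbdb and 11.4, 11.5 and 12.3 in dbR, kept the order seen for Cdkn1a without overlap. The part of these programmes in the member values was not tested.

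Markers of other cells of the cortex moved with the same groups, in dbdb against control beside 13.1% of all genes higher and 13.4% lower. Those of the distal convoluted tubule and collecting duct (7 listed, 6 called higher in dbdb) summed to 265 to 272 FPKM in control, 436 to 508 in dbdb and 468 to 509 in dbR. Endothelial markers (4 of 4 called lower in dbdb, Cdh5 under 9 of 20 alternatives) summed to 90.0 to 98.7, 63.3 to 69.1 and 90.3 to 108 FPKM. Macrophage markers (4 of 4 called lower in dbdb) summed to 25.2 to 32.5, 11.1 to 13.6 and 16.0 to 18.1 FPKM. Fibroblast, pericyte and smooth muscle markers (0 of 4 called in dbdb against control) summed to 21.2 to 38.5, 17.8 to 25.3 and 24.1 to 33.3 FPKM. Between dbR and dbdb, where 0.743% of all genes were called, 4 markers were called, all higher in dbR. They were the endothelial Emcn (0.66, adjusted p = 0.0205) and Kdr (0.52, adjusted p = 0.0309), the pericyte marker Pdgfrb (0.69, adjusted p = 0.0234) and Atp6v1g3 of the collecting duct (0.52, adjusted p = 0.0251). Each call was lost without dbR replicate 2 (adjusted p = 0.0689, 0.152, 0.109 and 0.12) and without dbR replicate 3 (0.0602, 0.0798, 0.0602 and 0.0602). They held under 15, 11, 12 and 12 of 20 alternatives, the other losses including those without dbdb replicate 1 (Kdr, Pdgfrb and Atp6v1g3), dbdb replicate 2 (Emcn, Pdgfrb and Atp6v1g3) and dbR replicate 1 (Kdr). Podocyte markers (2 of 4 called higher in dbdb) summed to 64.4 to 73.8, 76.6 to 81.1 and 69.4 to 84.5 FPKM. Of the 5 injured tubule markers, Lcn2 was higher in dbdb (1.35) and Havcr1 lower (-0.91), the latter under 12 of 19 alternatives and lost without control replicate 1 (0.0597) or 3 (0.128) or dbdb replicate 1 (0.0669) or 2 (0.115). The sum of the 5 was 4.02 to 4.60, 4.01 to 5.68 and 5.80 to 8.37 FPKM. Of 6 proximal tubule markers Slc5a2 was called higher in dbdb (0.42) and Slc22a6 lower (-0.58), under 16 and 20 of 20 alternatives. Cd79a, of 3 lymphocyte markers tested, was lower in dbdb. Of 3 thick ascending limb markers Slc12a1 and Cldn16 were higher in dbR than in control (12.3% of all genes), under 13 and 15 of 20 alternatives. No list but the 4 adipocyte genes and the 4 lymphocyte genes had a marker averaging under 0.1 FPKM. The part of cell composition in the member values was not tested.

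Long noncoding RNAs linked to p53 were read from the annotated lncRNA tables, summed over their transcripts. Gas5, the host of small nucleolar RNAs and a decoy of the glucocorticoid receptor, stood at 90.4, 92.8 and 96.6 FPKM in control, 97.0, 85.2 and 94.4 in dbdb, and 117, 118 and 126 in dbR. Every dbR library was above the other 6, with log2 differences of 0.38 from dbdb and 0.36 from control (exact permutation p = 0.1 each, two-sided, the smallest possible). Neat1, a paraspeckle RNA, was above control in all dbdb libraries (70.7 ± 7.97 against 57.5 ± 3.43 FPKM, SD, n = 3, log2 difference 0.29, exact permutation p = 0.1), while dbR at 61.7 ± 15.6 overlapped both. Pvt1 was lower in dbdb (1.88 ± 0.428 against 2.61 ± 0.395 FPKM, log2 difference -0.47, exact permutation p = 0.1) and scattered in dbR. Tug1 was at 22.6 ± 1.27, 22.1 ± 0.266 and 20.7 ± 0.434 FPKM, with dbR below both other groups. Snhg1 overlapped throughout, at 11.2 ± 2.65, 11.6 ± 1.89 and 9.58 ± 0.887 FPKM.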

How the data were processed

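RNA was sequenced from renal cortex of 9 mice, 3 per group. Per the labels and the submitters' processing notes, the authors aligned reads with TopHat2 2.0.9 and made transcript-level FPKM with Cufflinks 2.1.1 on GRCm38.p2, and deposited one table per library for mRNAs and for annotated lncRNAs. Tables of unannotated lncRNAs were not used here. FPKM is relative to each library, and mitochondrial genes took 26.9% to 32.8% of it, so a shift in them moves all other values.

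FPKM of transcripts was summed per gene, and log2(FPKM + 0.1) of the 14537 genes with mean FPKM of at least 0.1 was fitted over all 9 libraries with limma 3.58.1 (R 4.3.3; trended, moderated variance; 6 residual degrees of freedom), without a block, with Benjamini-Hochberg adjustment over all genes and 0.05 as the threshold. The fit was tested on simulated data. Single transcripts and lncRNAs got an exact two-sided permutation test. Depth was estimated from FPKM steps and is approximate. Gene positions come from GENCODE for GRCm38, promoter windows from RefSeq for GRCm38.p6 (12 windows, all 10 members matched), searched on both strands. Protein sequences were not analysed here.

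All members were named in every library. From each list Trp53 and Mdm4 were always named, and otherwise up to 4 called genes per direction and comparison with the largest log2 change. The members and lists were chosen with earlier results of these data known. Pseudocounts of 1 and 0.01, other filters, scalings and variance models, a replicate block, the top transcript and leaving out each library were the alternatives.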

Additional observations from a re-analysis of the deposited data

How the results depend on the processing

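Each member's log2 fold changes were recomputed under 20 alternatives, giving 597 values. Of these, 529 kept direction and side of the threshold, 48 kept direction and lost the call, 9 kept direction and gained it, and 11 changed sign. A mean of at least 1 FPKM removed Gadd45b, which then has no value. Across the other genes called, with Trp53 in every comparison, 2701 values kept direction and side, 330 kept direction and lost the call, and 0 changed sign. Those genes were taken because they passed in these libraries, so sign changes were unlikely and, but for Trp53, no call could be gained. The cause of each change was not tested.

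In dbdb against control, Mdm2 turned from -0.01 to 0.02 with scaling to the 75th percentile, 0.15 with mitochondrial genes left out and 0.02 with the highest transcript, Gadd45a turned to 0.08 with mitochondrial genes left out, and in dbR against dbdb Sesn1 turned from -0.06 to 0.03 with the highest transcript. Leaving out one library gave -0.34 to 0.33 for Gadd45a and -0.05 to 0.05 for Mdm2 in dbdb against control, -0.11 to 0.57 for Gadd45a in dbR against control and -0.58 to 0.29 for Gadd45g in dbR against dbdb.

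Members called between dbR and dbdb numbered 1, and 0 without a filter, with the 6 libraries alone, without a variance trend, with the replicate block and with the highest transcript, 2 after quantile normalization, 3 with mitochondrial genes left out, and 0 to 1 with a library left out. In dbR against control 7 became 4 after quantile normalization, 2 with the highest transcript and 3 to 8 with a library left out. The shares of all genes or transcripts called there were 23%, 8.5% and 17% to 24.6%. Of the other p53 targets, 1 was called between dbR and dbdb at a mean of at least 1 FPKM, with 75th percentile scaling, after quantile normalization and with the replicate block, 2 with mitochondrial genes left out and 0 to 1 with a library left out. In dbR against control 10 became 6 after quantile normalization, 5 with the highest transcript and 5 to 10 with a library left out.

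Over all genes, calls between dbR and dbdb ran from 2 (without dbR replicate 2) to 234 (quantile normalization), against 108. The replicate block gave 5, 0 and 5 members called in the 3 comparisons. Same-numbered libraries correlated at -0.17 to 0.06 in their deviations from group means, so the numbers were not taken to pair the mice. With 3 mice a group, an uncalled member may still differ. Gadd45b rests on few fragments.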
